A study of Mus musculus with 33 samples.

Results

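The 8 genes described here, Arntl, Clock, Per1, Per2, Nr1d2, Bhlhe40, Dbp and Usp2, encode parts of the circadian clock or transcripts under its control. They were chosen by gene symbol in the platform annotation, with earlier results of these data known. They are 8 of the 8252 genes with a single symbol on the array. Their symbols stand on 9 of 12488 probe sets, since Usp2 has 2. All 9 were called present on at least 3 of 33 arrays and so were among the 6568 probe sets tested.

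The study asked how rapamycin, a drug that inhibits the kinase complex mTORC1, alters liver transcripts of fasted, refed and nonfasted mice. Each of 33 livers of adult males was hybridised to 1 Affymetrix MG-U74Av2 array, and no pooling of animals was stated. One group of 5 mice was fasted for 24 h and not injected. In 8 groups of 3 mice each, a fast of 22 h was followed by an injection of vehicle (0.9% NaCl with 2% ethanol) or of rapamycin at 10 mg/kg in it, and 2 h later the mice were killed (0 h) or refed ad libitum for 3, 6 or 12 h. In 2 groups of 2 mice each, nonfasted animals received either injection and were killed 24 h after it. The mouse strain, the hour of injection and the light cycle are not given in the sources used here. Refed mice were killed 5, 8 and 14 h after their injection and 0 h mice 2 h after it, so time of day moved together with refeeding time. For clock genes, whose transcripts cycle over the day, refeeding and time of day therefore cannot be told apart in any comparison between time points below.

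In the mammalian clock the transcription factors ARNTL (also named BMAL1) and CLOCK bind E-boxes as a pair and switch on the Per and Cry genes, the Rev-erb genes Nr1d1 and Nr1d2, Bhlhe40 and Dbp. PER and CRY proteins then block that pair, REV-ERB proteins repress Arntl through ROR elements, and DBP drives further genes through D-boxes, so that the activators and their targets peak at opposite times of day. The liver clock is known to follow the time of feeding, and insulin and glucocorticoids act on some of its genes directly.

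Values are probe set intensities in arbitrary units, in which a value at or below 0 means that the mismatch probes were as bright as the matched ones. The authors' table names 30 as a floor, and values under 30 were read here as dim. On the log2 scale values were first raised to a floor of 6.31, so a log2 change of a gene at that floor depends on it. Where no array of the lower group exceeded 30, the higher group's geometric mean (each array raised to 30 where lower) over 30 is given as "at least". The arrays fell into 2 sets by how many of their values were 0 or negative, which ran from 35.05% to 40.8% in set 1 (16 arrays) and from 24.2% to 28.2% in set 2 (17 arrays). Nonfasted rapamycin mice, uninjected fasted mice and vehicle mice at 0 or 6 h are in set 1. Nonfasted vehicle mice, vehicle mice refed for 3 or 12 h and rapamycin mice at 0 or 12 h are in set 2. Rapamycin mice refed for 3 or 6 h are split, with 1 and 2 of their arrays in set 1. Where a call between sets is lost, or moves by over 1.5 times, with the set as a term in the model, that value or the loss of the call is given too.

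The hepatocyte markers fitted the liver label, and markers of other cell types and tissues were read beside them. All 6 measured hepatocyte markers, among them Alb at 5245 to 8442, were above 30 on all 33 arrays. Their summed intensity ran from 23813 to 25909 in vehicle mice at 0 h, from 19776 to 21235 at 6 h and from 17640 to 19670 at 12 h, and the part of this shift in the results below was not tested. Not all 6 moved alike. Against 0 h, Ttr was higher at 6 and 12 h, while 2 (Tat and Fgb) were lower at 6 h and the other 5 at 12 h. In whole liver, fewer cells of a type and less RNA per cell cannot be told apart. Of 9 Kupffer cell markers 7 were above 30 on 29 to 33 arrays, while Adgre1 and Marco were so on 0 and 1, and Kupffer marker sums ran from 528 to 580, from 591 to 692 and from 548 to 615 at these times. Hba-a1, a red blood cell transcript, ran from 624 to 2926 over the arrays and was lower in vehicle mice at 3, 6 and 12 h and in rapamycin mice at 0 h than in vehicle mice at 0 h, and its part in the results was likewise not tested. Of 7 lymphocyte markers Ms4a1 (123 to 742) and Ighm were above 30 on all 33 arrays, Cd79a and Cd79b on 19 each, and Cd3e, Cd3g and Ptprc on 0. Their sums ran from 588 to 732 in vehicle mice at 0 h and from 368 to 506 at 12 h, with Ms4a1 lower at 6 and 12 h, and their part was not tested. The exocrine pancreas markers Cel, Cela2a and Ctrb1 were above 30 on 32, 31 and 22 arrays. Cel was lower in vehicle 6 h than in uninjected mice and in rapamycin mice at 6 h than at 0 h. Skeletal muscle markers Ckm, Myh4, Acta1 and Tnnt3 were above 30 on 14, 13, 3 and 0 arrays. The part of these 2 lists was not tested.

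Promoter windows are shown for the members that passed the test over the vehicle time course, except Bhlhe40 and Per2, for which no window was available. Of those shown, Dbp, Nr1d2 and Usp2 rose and Arntl fell, while no change of Clock from 0 h passed in vehicle mice. Each window spans 250 bases before and 50 after an annotated RefSeq transcription start (GRCm38.p6), and 6 of the 8 members had a window. Both strands were searched for the E-box CACGTG, a variant E-box CACGTT, the D-box TTANGNAA, the ROR element TAGGTNA and the cAMP response element core TGACGT, and matches are in capitals. Dbp, a target that rose, has its window at chr7:45704997-45705296 (plus strand), Nr1d2, a repressor that rose, at chr14:18239057-18239356 (minus strand) and Usp2, an output gene that rose, at chr9:44084670-44084969 (plus strand). Arntl, an activator that fell, has its window at chr7:113207261-113207560 (plus strand), and Clock, the other activator, at chr5:76304743-76305042 (minus strand).
Dbp: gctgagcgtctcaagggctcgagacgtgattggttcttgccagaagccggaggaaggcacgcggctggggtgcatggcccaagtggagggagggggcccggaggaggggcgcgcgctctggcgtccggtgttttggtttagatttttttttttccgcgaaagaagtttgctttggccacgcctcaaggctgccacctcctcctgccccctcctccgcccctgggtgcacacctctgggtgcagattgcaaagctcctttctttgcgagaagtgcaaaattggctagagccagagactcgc
Nr1d2: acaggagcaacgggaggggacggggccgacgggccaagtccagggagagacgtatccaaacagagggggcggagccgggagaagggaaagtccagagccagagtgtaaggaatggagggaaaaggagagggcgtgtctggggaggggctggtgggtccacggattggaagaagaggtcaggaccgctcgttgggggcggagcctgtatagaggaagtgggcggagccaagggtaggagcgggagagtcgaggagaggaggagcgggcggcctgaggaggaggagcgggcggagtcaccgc
Usp2: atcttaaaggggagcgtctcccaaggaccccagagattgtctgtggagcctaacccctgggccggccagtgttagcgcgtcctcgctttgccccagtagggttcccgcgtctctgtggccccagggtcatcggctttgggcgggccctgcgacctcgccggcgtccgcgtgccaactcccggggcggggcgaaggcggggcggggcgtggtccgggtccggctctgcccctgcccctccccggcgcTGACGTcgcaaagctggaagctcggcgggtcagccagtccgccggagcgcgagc
Arntl: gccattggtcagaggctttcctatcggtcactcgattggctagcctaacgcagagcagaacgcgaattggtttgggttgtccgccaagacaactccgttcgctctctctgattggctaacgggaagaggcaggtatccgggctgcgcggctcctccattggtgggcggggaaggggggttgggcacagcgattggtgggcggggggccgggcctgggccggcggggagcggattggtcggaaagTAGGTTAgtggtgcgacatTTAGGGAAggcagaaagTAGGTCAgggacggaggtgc
Clock: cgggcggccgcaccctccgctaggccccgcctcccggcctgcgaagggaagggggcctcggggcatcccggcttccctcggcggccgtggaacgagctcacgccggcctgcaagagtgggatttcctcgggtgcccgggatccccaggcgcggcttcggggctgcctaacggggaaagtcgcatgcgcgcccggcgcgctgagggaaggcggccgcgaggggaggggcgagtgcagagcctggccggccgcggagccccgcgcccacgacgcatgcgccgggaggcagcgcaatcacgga

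The Arntl window shown held 3 matches. They were the ROR elements TAGGTTA and TAGGTCA, which start 6 bases before and 30 bases after the transcription start, and a D-box, TTAGGGAA, 13 bases after it. A second Arntl window, which overlaps this one, held 1 match, the ROR element TAGGTTA. The Usp2 window held a cAMP response element core across the start, and the windows of Dbp, Nr1d2 and Clock held none of the 5 motifs. Per1, which did not pass over the time course, had an E-box and the D-box TTATGCAA in 1 of its windows and a cAMP response element core in the other. Of 32851 promoter windows of 27025 genes, 8.289% held the ROR element, 11.48% the D-box, 7.15% the E-box, 4.685% the variant E-box and 7.513% the cAMP response element core. A match describes the letters of the window and not a bound site, and a window without one says only that these letters are not in those 300 bases.

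Arntl (chr7:113178471-113314126) fell as refeeding time increased, in vehicle and in rapamycin mice. It read 76, 65 and 59 in vehicle mice at 0 h, 44, 38 and 50 at 3 h, 16, 23 and 24 at 6 h, and 50, 33 and 17 at 12 h. Every refed array lay below every 0 h array, the 3 arrays at 6 h lay under 30, and the 12 h arrays spread from the 6 h level to the 3 h level. From 0 to 6 h, within set 1, the mean fell from 66.7 ± 8.62 to 21 ± 4.36 (SD, n = 3 each), at least 2.21-fold, a log2 change of -1.68 ± 0.32 (SE; limma, adjusted p = 4.44e-04). At 12 h the log2 change from 0 h was -1.13 (adjusted p = 0.00862), which was -0.84 with array set in the model (adjusted p = 0.261) and -0.71 without vehicle 12 h replicate 3 (adjusted p = 0.0933). At 3 h it was -0.60 and did not pass (adjusted p = 0.187).

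In rapamycin mice Arntl read 65, 82 and 78 at 0 h, 55, 52 and 45 at 3 h, 16, 16 and 9 at 6 h, and 26, 20 and 9 at 12 h. The 6 and 12 h arrays lay far below the others, all under 30, and the 3 h arrays lay between. The log2 change from 0 h was -2.50 ± 0.32 at 6 h (adjusted p = 7.51e-06) and, within set 2, -2.16 ± 0.32 at 12 h (adjusted p = 3.04e-05), at least 2.49-fold in both. Uninjected fasted mice read 70.7, 80, 71, 67 and 57, nonfasted vehicle mice 70 and 73, and nonfasted rapamycin mice 59 and 48. By group mean Arntl was thus higher in fasted and in nonfasted mice than at 6 and 12 h of refeeding, though 1 vehicle 12 h array (50) lay above 1 nonfasted rapamycin array (48). Nonfasted mice were killed 24 h after injection and these refed mice 8 and 14 h after it, so feeding state and time of day cannot be told apart here. Ordered by group mean, the levels descended from rapamycin 0 h (75) to rapamycin 6 h (13.7), and no neighbouring pair in that order passed the test (adjusted p 0.307 or above).

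Clock (chr5:76209868-76305603), the partner of ARNTL, moved less. In vehicle mice it read 50, 46 and 57 at 0 h, 63, 52 and 79 at 3 h, 37, 38 and 36 at 6 h, and 46, 54 and 35 at 12 h. The 6 h arrays were below all those at 0 and 3 h, while the 12 h arrays overlapped both. No change from 0 h passed in vehicle mice (log2 0.33, -0.46 and -0.20 at 3, 6 and 12 h, adjusted p = 0.258, 0.115 and 0.478). With 30 as the floor the change at 6 h, within set 1, did pass (-0.46, adjusted p = 0.0438). The fall from 3 to 6 h passed, at -0.78 ± 0.20 (adjusted p = 0.0147). That pair lies in different array sets, and the change was -0.39 with the set as a term (adjusted p = 0.761) and -0.63 without vehicle 3 h replicate 3 (adjusted p = 0.0779).

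In rapamycin mice Clock read 58, 64 and 64 at 0 h, 65, 70 and 63 at 3 h, 25, 28 and 43 at 6 h, and 42, 36 and 22 at 12 h. Every 6 and 12 h array lay below every 0 and 3 h array. The log2 change from 0 h was -0.99 ± 0.20 at 6 h (adjusted p = 0.0012; -0.73 and adjusted p = 0.0505 with the set as a term) and, within set 2, -0.95 ± 0.20 at 12 h (adjusted p = 0.00137). In uninjected fasted mice the values were 43.3, 38, 43, 46 and 41, nonfasted vehicle mice 67 and 65, and nonfasted rapamycin mice 48 and 55. In the order of group means, from rapamycin 3 h (66) down to rapamycin 6 h (32), no neighbouring pair passed the test.

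**Figure D1:**
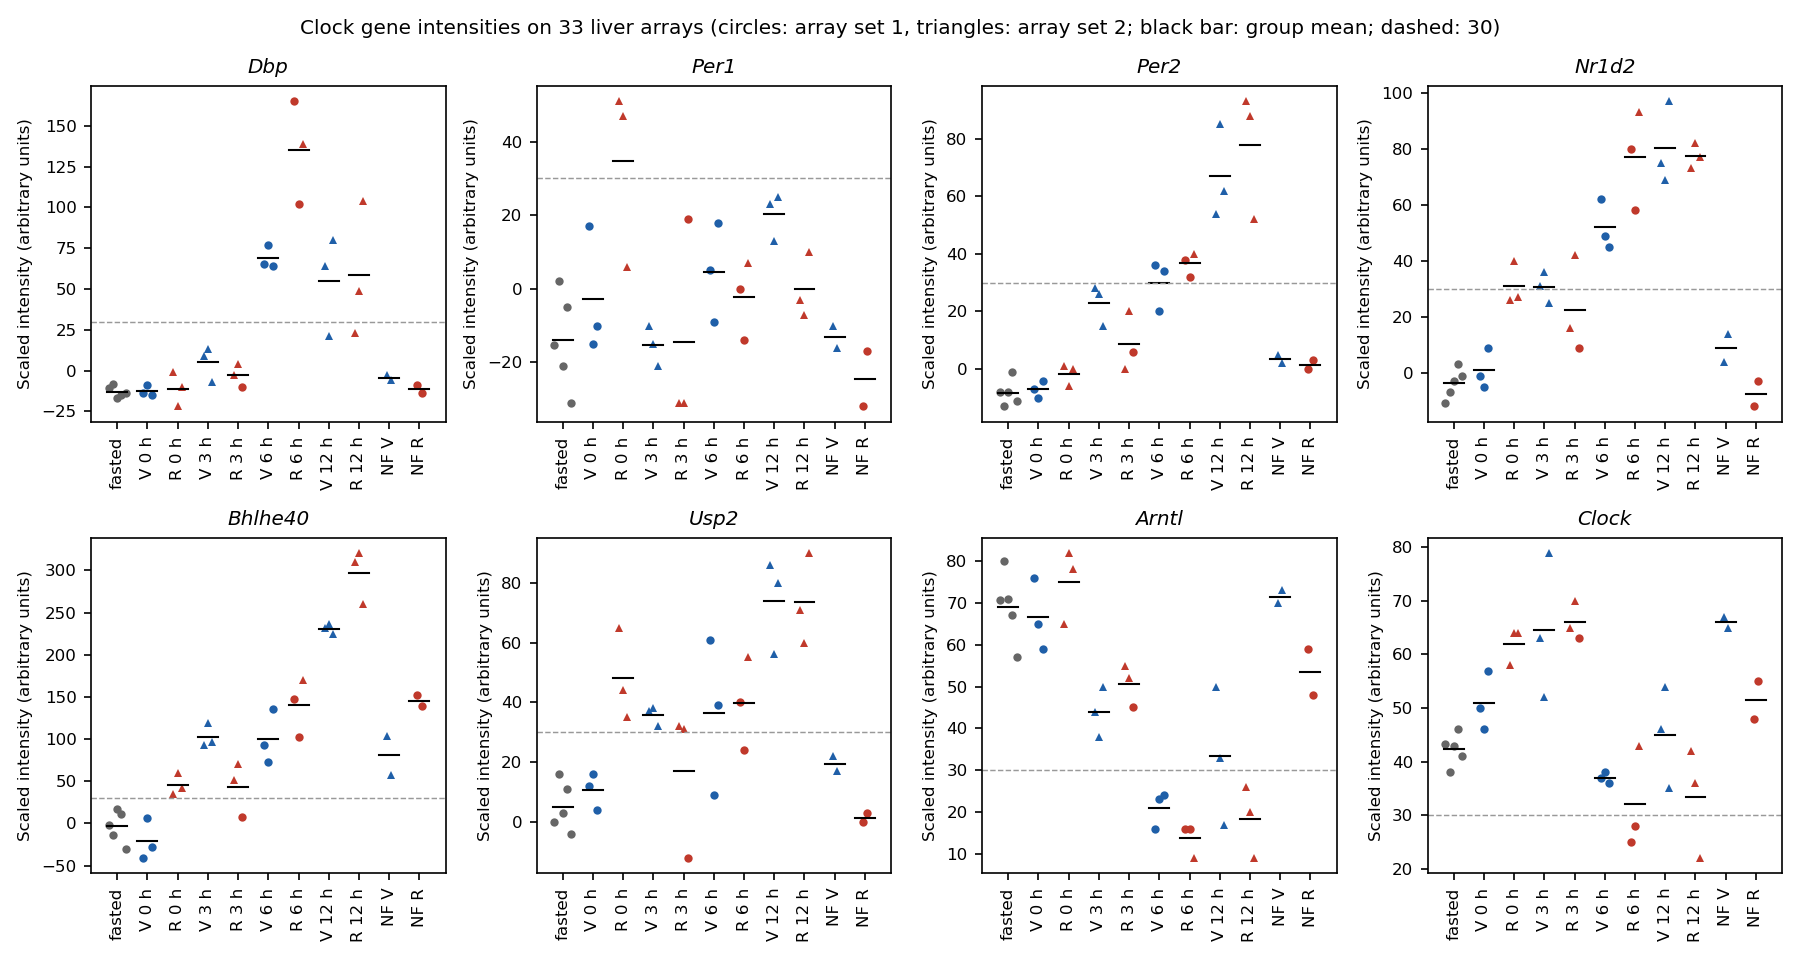
Intensity (arbitrary units) of each clock gene on the 33 arrays by group, with V for vehicle, R for rapamycin and NF for nonfasted mice, a black bar at the group mean, circles for set 1, triangles for set 2 and a dashed line at 30. Arntl was highest in the fasted, 0 h and nonfasted groups and lowest at 6 and 12 h, where Dbp, Per2 and Nr1d2 were highest.

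Among the repressors, Per1 (chr11:69095108-69109965), a light- and hormone-responsive period gene, was near background. It was called present on 5 arrays and lay at or below 30 on 31 of 33. The 2 arrays above 30 were of rapamycin mice at 0 h, which read 51, 47 and 6. Vehicle mice read 17, -15 and -10 at 0 h, -10, -15 and -21 at 3 h, 5, -9 and 18 at 6 h, and 23, 13 and 25 at 12 h, so every refed group overlapped the 0 h group. The F-test over the vehicle time course did not pass (adjusted p = 0.0967).

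Per1 was lower in rapamycin mice refed for 6 h (0, -14 and 7) and 12 h (-3, -7 and 10) than at 0 h, with log2 changes of -1.92 ± 0.56 (adjusted p = 0.018) and -1.75 ± 0.56 (adjusted p = 0.0247). The third 0 h array, at 6, lay inside the range of both refed groups. Without rapamycin 0 h replicate 1 the changes were -1.40 and -1.23 (adjusted p = 0.101 and 0.14), without replicate 2 -1.46 and -1.29 (adjusted p = 0.115 and 0.156). Leaving out replicate 1 or 2 of either refed group also ended the call (adjusted p between 0.0523 and 0.0826).

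Per2 (chr1:91415977-91459351), the other period gene measured among these 8, rose with refeeding time. Vehicle mice read -7, -10 and -4 at 0 h, 28, 26 and 15 at 3 h, 36, 20 and 34 at 6 h, and 54, 85 and 62 at 12 h. Each refed group lay wholly above the 0 h group and the 12 h arrays lay above all others, while the 3 and 6 h groups overlapped. The mean rose from -7 ± 3 at 0 h to 67 ± 16.1 at 12 h (SD, n = 3 each), at least 2.19-fold, a log2 change of 3.38 ± 0.32 (adjusted p = 2.97e-08; 2.87 and adjusted p = 1.21e-04 with the set as a term). At 6 h, within set 1, the log2 change was 2.20 ± 0.32 (adjusted p = 1.74e-05), but with 30 as the floor it was 0.15 (adjusted p = 0.663), since only 2 of 3 arrays exceeded 30. At 3 h it was 1.81 (adjusted p = 2.95e-04) with all 3 arrays under 30, and 1.30 with the set as a term (adjusted p = 0.132).

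In rapamycin mice Per2 read 1, -6 and 0 at 0 h, 0, 20 and 6 at 3 h, 38, 32 and 40 at 6 h, and 93, 88 and 52 at 12 h. The 6 h arrays lay above those at 0 and 3 h, and the 12 h arrays above those at 6 h. The log2 change from 0 h was 2.53 ± 0.32 at 6 h (adjusted p = 4.76e-06), where with 30 as the floor it was 0.28 (adjusted p = 0.204). Within set 2 it was 3.57 ± 0.32 at 12 h (adjusted p = 3.45e-08), at least 2.51-fold. The uninjected fasted mice gave -8.1, -13, -8, -1 and -11, and nonfasted mice 5 and 2 with vehicle and 0 and 3 with rapamycin. Per2 was thus dim in fasted and nonfasted mice, and highest at 12 h.

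Nr1d2 (chr14:18204056-18239106) encodes REV-ERB-beta, a nuclear receptor that represses Arntl. Its probe set was designed from a sequence that the authors' deposited table describes as thyroid hormone receptor alpha, while the platform annotation names Nr1d2, and that naming was used here. Of 2 Thra probe sets, the one with the same sequence cluster was called present on 0 arrays, with group means from -34.3 to 6.33. The other was called present on 1 array, with group means of 8 in vehicle mice at 0 h, 38.7, 30.3 and 36.7 at 3, 6 and 12 h, and 56 and 66.5 in nonfasted vehicle and rapamycin mice, so the identity of the Nr1d2 signal was not settled here. Vehicle mice read -1, -5 and 9 for Nr1d2 at 0 h, 31, 36 and 25 at 3 h, 62, 49 and 45 at 6 h, and 75, 69 and 97 at 12 h. Each group lay wholly above the one before it in refeeding time.

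From 0 to 6 h, within set 1, the mean of Nr1d2 rose from 1 ± 7.21 to 52 ± 8.89 (SD, n = 3 each), at least 1.72-fold, a log2 change of 2.86 ± 0.35 (adjusted p = 2.33e-06). At 12 h it was 80.3 ± 14.7, at least 2.65-fold above 30, a log2 change of 3.48 ± 0.35 (adjusted p = 6.93e-08; 2.50 and adjusted p = 3.40e-04 with the set as a term). At 3 h the log2 change was 2.09 (adjusted p = 1.87e-04), but 1.11 with the set as a term (adjusted p = 0.197) and -0.24 with the term and 30 as the floor (adjusted p = 0.71). Within set 2 the rise from 3 to 12 h was 1.39 ± 0.35 (adjusted p = 0.0116), and it did not pass without vehicle 3 h replicate 3 (1.25, adjusted p = 0.0587) or vehicle 12 h replicate 3 (1.25, adjusted p = 0.0573).

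Rapamycin mice read 26, 40 and 27 for Nr1d2 at 0 h, 16, 42 and 9 at 3 h, 80, 58 and 93 at 6 h, and 73, 82 and 77 at 12 h. The 6 and 12 h arrays lay above all earlier ones, and the 3 h arrays lay on both sides of the 0 h ones. The log2 change from 0 h was 1.31 ± 0.35 at 6 h (adjusted p = 0.00943; 1.97 and adjusted p = 0.0011 with the set as a term) and, within set 2, 1.35 ± 0.35 at 12 h (adjusted p = 0.00638). Uninjected fasted mice read -10.6, -7, -3, 3 and -1, nonfasted vehicle mice 4 and 14, and nonfasted rapamycin mice -12 and -3. No neighbouring pair in the order of group means passed, from vehicle 12 h (80.3) down to nonfasted rapamycin (-7.5).

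Bhlhe40 (chr6:108660629-108666925) encodes DEC1, a repressor that competes for E-boxes and responds to many outside signals. Vehicle mice read -41, 6 and -28 at 0 h, 93, 119 and 96 at 3 h, 93, 73 and 136 at 6 h, and 232, 236 and 225 at 12 h. All refed arrays were far above the 0 h arrays, the 3 and 6 h groups overlapped, and the 12 h arrays lay together above both. At 6 h, within set 1, the mean was 100.7 ± 32.2 against -21 ± 24.3 at 0 h (SD, n = 3 each), at least 3.25-fold, a log2 change of 3.95 ± 0.50 (adjusted p = 4.29e-06; 1.70 and adjusted p = 5.02e-05 with 30 as the floor). At 12 h it was 231 ± 5.57, at least 7.70-fold above 30, a log2 change of 5.19 ± 0.50 (adjusted p = 4.59e-08; 3.50 and adjusted p = 1.81e-04 with the set as a term).

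At 3 h the log2 change of Bhlhe40 was 4.01 ± 0.50 (adjusted p = 7.54e-06), and it was the 1 member that still passed there with the set as a term (2.32, adjusted p = 0.0278), though not with the term and 30 as the floor (1.02, adjusted p = 0.0973). In nonfasted mice Bhlhe40 read 104 and 58 with vehicle and 152 and 139 with rapamycin. All 4 values exceeded those of every fasted or 0 h vehicle array. In uninjected fasted mice the values were -1.8, -14, 17, 11 and -30. In rapamycin mice it read 35, 60 and 42 at 0 h, 52, 71 and 8 at 3 h, 148, 102 and 170 at 6 h, and 310, 321 and 260 at 12 h.

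These rapamycin groups at 0 and 3 h overlapped, and those at 6 and 12 h lay above them in turn. The log2 change of Bhlhe40 from 0 h was 2.73 ± 0.50 at 12 h within set 2 (adjusted p = 3.40e-04) and 1.62 ± 0.50 at 6 h (adjusted p = 0.0248). The latter did not pass without rapamycin 0 h replicate 1 or 3 or rapamycin 6 h replicate 1 or 3 (adjusted p between 0.0666 and 0.0764), but was 2.75 with the set as a term (adjusted p = 6.74e-04). In the order of the 11 group means 1 neighbouring pair passed, rapamycin 3 h (43.7) against uninjected fasted mice (-3.56, adjusted p = 0.00662), and it did not pass with the set as a term (log2 0.71, adjusted p = 0.416). The highest 2 groups, rapamycin 12 h (297) and vehicle 12 h (231), did not overlap but did not pass (log2 0.36, adjusted p = 0.985).

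Of the output genes, Dbp (chr7:45705100-45710203), a D-box factor that is among the most strongly cycling liver transcripts, was dim in every group but those refed for 6 and 12 h. Vehicle mice read -14, -9 and -15 at 0 h, 9, 13 and -7 at 3 h, 65, 77 and 64 at 6 h, and 64, 21 and 80 at 12 h. The 6 h arrays lay close together above all earlier ones, and the 12 h group overlapped them but held 1 array under 30. From 0 to 6 h, within set 1, the mean rose from -12.7 ± 3.21 to 68.7 ± 7.23 (SD, n = 3 each), at least 2.28-fold, a log2 change of 3.44 ± 0.39 (adjusted p = 8.63e-07; 1.19 and adjusted p = 0.0062 with 30 as the floor). At 12 h the log2 change was 2.91 ± 0.39 (adjusted p = 3.63e-06; 2.86 and adjusted p = 0.00153 with the set as a term). The term and 30 as the floor together gave 0.79 at 12 h (adjusted p = 0.292). At 3 h it was 0.52 (adjusted p = 0.365).

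Rapamycin mice read -1, -22 and -10 for Dbp at 0 h, -3, 4 and -10 at 3 h, 165, 102 and 139 at 6 h, and 23, 49 and 104 at 12 h. The 6 h arrays lay far above those at 0 and 3 h, and the 12 h group, with 1 array under 30, overlapped them at its upper end. The log2 change from 0 h was 4.39 ± 0.39 at 6 h (adjusted p = 5.41e-08), at least 4.42-fold, and 4.46 with the 1 rapamycin 6 h array of set 2, assumed to vary like the other groups (adjusted p = 6.86e-05). Within set 2 it was 2.95 ± 0.39 at 12 h (adjusted p = 6.49e-06). The uninjected fasted mice gave -10.9, -8, -17, -15 and -14, and nonfasted mice -3 and -6 with vehicle and -9 and -14 with rapamycin. In the order of group means the step from vehicle 12 h (55) down to vehicle 3 h (5) was the 1 neighbouring pair that passed (adjusted p = 3.57e-04).

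Usp2 (chr9:44067021-44095627), a clock-driven gene for a deubiquitinating enzyme, was measured by 2 probe sets, at or below 30 on 15 and 23 of 33 arrays. On the brighter, vehicle mice read 12, 16 and 4 at 0 h, 37, 38 and 32 at 3 h, 61, 9 and 39 at 6 h, and 86, 56 and 80 at 12 h. The 3 h and 12 h groups lay above the 0 h group, while 1 array at 6 h fell within it. The mean rose from 10.7 ± 6.11 at 0 h to 74 ± 15.9 at 12 h (SD, n = 3 each), at least 2.43-fold, a log2 change of 2.77 ± 0.58 (adjusted p = 6.56e-04), which was 1.20 with the set as a term (adjusted p = 0.303). The other probe set gave 3.58 at 12 h (adjusted p = 5.50e-04), and 3.81 with the set as a term (adjusted p = 0.0197). At 6 h, within set 1, neither passed (1.38 and 1.24, adjusted p = 0.0947 and 0.263).

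At 3 h the brighter Usp2 probe set changed by 1.74 (adjusted p = 0.0329), which was 0.16 with the set as a term (adjusted p = 0.959). The call was lost without vehicle 0 h replicate 1 or 3 or any 1 of the 3 vehicle 3 h arrays (adjusted p between 0.0599 and 0.112). Rapamycin mice read 65, 44 and 35 at 0 h, 32, 31 and -12 at 3 h, 40, 24 and 55 at 6 h, and 71, 60 and 90 at 12 h. The 0 h group stood above the 3 h group and overlapped the later ones, and no change from 0 h passed (log2 -1.33, -0.31 and 0.65, adjusted p = 0.282, 0.746 and 0.45). With 30 as the floor the change at 12 h, within set 2, did pass (0.65, adjusted p = 0.0418). The other probe set gave 1.39 at 12 h with that floor (adjusted p = 0.0139), and its 0 and 12 h groups did not overlap. Uninjected fasted mice read 0, 16, 3, 11 and -4, and nonfasted mice 22 and 17 with vehicle and 0 and 3 with rapamycin.

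Counted over the 8 members, the vehicle mice asked what refeeding and its time of day change. Since the members were chosen with earlier results of these data known, the shares of all probe sets beside the counts are given for scale and not as a test. At 6 h against 0 h, within set 1, 4 of 8 rose (Bhlhe40, Dbp, Nr1d2 and Per2) and 1 fell (Arntl), where 14.2% of all probe sets tested rose and 6.9% fell. At 3 h 4 rose (Bhlhe40, Nr1d2, Per2 and Usp2) and 0 fell, beside 19.9% and 2.54% of all probe sets, and 4 had an unadjusted p under 0.05. At 12 h 5 rose and 1 fell (Arntl), beside 26% and 9.3%. The median log2 change of the 8 was 1.79 at 6 h, 1.13 at 3 h and 2.84 at 12 h, and that of all probe sets 0.02, 0.27 and 0.24. These 3 comparisons share the 0 h arrays, and at 3 and 12 h the refed arrays lie in the other set. With the set as a term 1 and 4 members passed at 3 and 12 h, beside 2.68% and 15.6% of all probe sets. With 30 as the floor, Nr1d2, Per2 and Usp2 did not pass at 3 h (0.10, 0 and 0.25, adjusted p = 0.823, 1 and 0.564), and Arntl did (-0.60, adjusted p = 0.00685). After quantile normalization the median of all probe sets was 0 at 3 h and 0.01 at 12 h, and no member that had passed changed direction.

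Against uninjected fasted mice (n = 5), also within set 1, 5 of 8 members were higher at 6 h in vehicle mice (Bhlhe40, Dbp, Nr1d2, Per2 and Usp2) and Arntl was lower, beside 18% and 11.6% of all probe sets. The log2 changes were 3.50, 3.44, 3.03, 2.20, 1.71 and -1.73. With 30 as the floor Per2 and Usp2 did not pass (0.15 and 0.47, adjusted p = 0.524 and 0.103). The brighter Usp2 probe set did not pass there without vehicle 6 h replicate 1 or 3 (1.14 and 1.46, adjusted p = 0.159 and 0.0726). The other Usp2 probe set overlapped between these groups and did not pass. Within set 2, from 3 to 12 h, Dbp, Per2 and Nr1d2 rose by log2 changes of 2.40, 1.57 and 1.39, that is 3 of 8 beside 5.8% of all probe sets, and 0 fell beside 5.16%. With 30 as the floor Dbp did not pass (0.84, adjusted p = 0.0615), while Bhlhe40, Usp2 and Clock did. From 3 to 6 h Dbp rose (2.92) and Arntl and Clock fell (1 of 8 beside 2.22% and 2 of 8 beside 11.5%). The vehicle 3 and 6 h groups lie in different sets. None of these changes passed with the set as a term, where 0.0152% of all probe sets did, and the part of the set in them was not tested beyond that term. From 6 to 12 h only Per2 rose (1.18, adjusted p = 0.0381; 1 of 8 beside 3.15%, with 0 lower beside 0.548%). It did not pass with the set as a term (0.66, adjusted p = 0.901), where 0.0914% of all probe sets did.

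The F-test over 0, 3, 6 and 12 h in vehicle mice passed for 7 of 8 members, all but Per1, beside 41.1% of all probe sets. With array set in the model it passed for 5, beside 24.6% of all probe sets. Usp2 and Clock then had adjusted p = 0.0738 and 0.0502. In the rapamycin mice, from 0 to 6 h, Bhlhe40, Dbp, Nr1d2 and Per2 rose and Arntl, Clock and Per1 fell (4 and 3 of 8 beside 10.7% and 10.1% of all probe sets). The same 4 rose and the same 3 fell from 0 to 12 h, all within set 2 (beside 14.6% and 10.4%). From 0 to 3 h no member passed in limma (2.79% of all probe sets did), and 3 had an unadjusted p under 0.05.

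**Figure D2:**
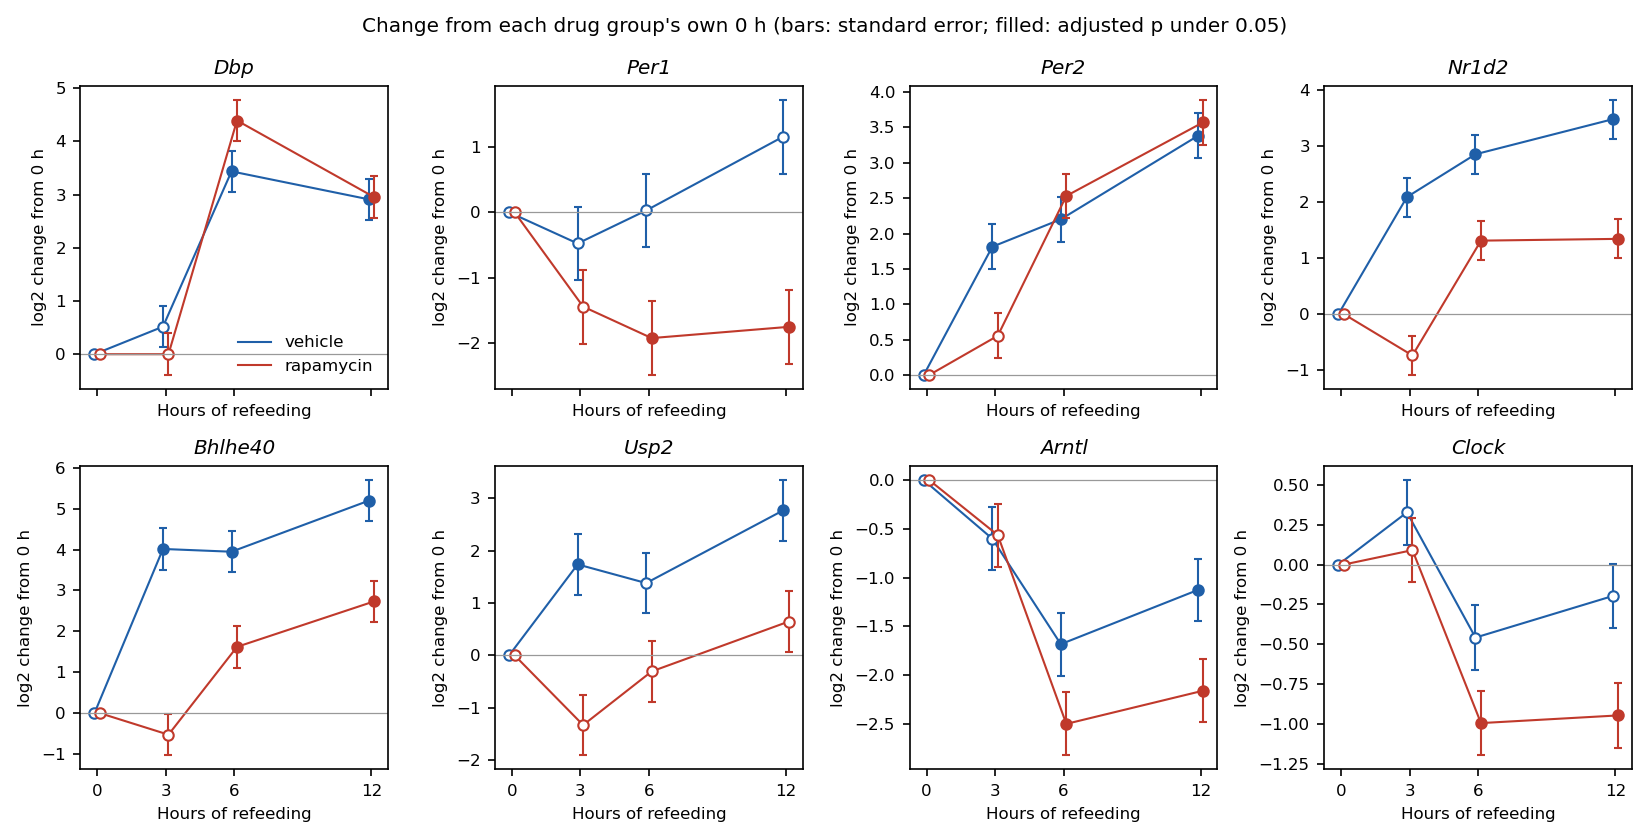
Log2 change of each clock gene from the 0 h mice of the same drug (vertical axis) by hours of refeeding (horizontal axis) in vehicle (blue) and rapamycin mice (red), with bars for the standard error and filled points for an adjusted p under 0.05. Dbp, Per2, Nr1d2 and Bhlhe40 have filled points above 0 at 6 and 12 h with both drugs, and Arntl has filled points below 0 there.

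The effect of rapamycin itself was compared at each time. At 0 h, after 2 h of drug, Bhlhe40, Nr1d2 and Usp2 were higher with rapamycin than with vehicle (3 of 8 beside 4.78% of all probe sets), and 0 were lower (beside 0.579%). For Bhlhe40 the rapamycin arrays (35, 60 and 42) lay wholly above the vehicle arrays (-41, 6 and -28), a log2 change of 2.82 ± 0.50 (adjusted p = 0.0029). Nr1d2 and the brighter Usp2 probe set changed by 2.10 ± 0.35 (adjusted p = 0.0017) and 2.12 ± 0.58 (adjusted p = 0.0307), also without overlap. The other Usp2 probe set did not overlap either, but it did not pass. All rapamycin 0 h arrays lie in set 2 and all vehicle 0 h arrays in set 1, so drug and set can be separated only through the mixed groups at 3 and 6 h. With the set as a term the changes of Bhlhe40, Nr1d2 and the brighter Usp2 probe set were 1.12, 1.11 and 0.55. None passed (adjusted p = 0.737, 0.636 and 0.936), and 0.0457% of all probe sets did. With the term and 30 as the floor the changes of Bhlhe40 and Nr1d2 were -0.17 and -0.21. With 30 as the floor alone none of the 3 passed (adjusted p = 0.302, 0.846 and 0.187), and Per1 did (0.47, adjusted p = 0.0197). For Usp2 the call was also lost without vehicle 0 h replicate 1 or 3 or rapamycin 0 h replicate 1 or 2 (adjusted p between 0.0701 and 0.0935).

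Against uninjected fasted mice, whose arrays are all in set 1, rapamycin 0 h mice had 5 of 8 members higher (Bhlhe40, Nr1d2, Usp2, Per1 and Clock, beside 9.84% of all probe sets, and 0 lower beside 2.3%). With the set as a term 0 passed, beside 0.0305% of all probe sets. With 30 as the floor Bhlhe40, Nr1d2 and the brighter Usp2 probe set did not pass (adjusted p = 0.164, 0.716 and 0.0738). The other Usp2 probe set did not pass with either floor. Per1 was higher by 1.97 (adjusted p = 0.0124), and did not pass without rapamycin 0 h replicate 1 or 2. Clock was higher by 0.55 (adjusted p = 0.0455), and did not pass once any 1 of the 5 fasted or 3 rapamycin arrays was left out. Vehicle 0 h mice, whose arrays are of the same set as the uninjected mice, showed 0 of 8 members changed in limma (5.88% of all probe sets did), and 0 at an unadjusted p under 0.05. The groups overlapped for all 8 members, where 8.59% of all probe sets had groups that did not overlap.

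During refeeding no member passed between rapamycin and vehicle in limma, at 3, 6 or 12 h. The shares of all probe sets that passed were 0.305%, 0.0152% and 0.32%, and 3, 1 and 3 members had an unadjusted p under 0.05. Dbp at 6 h read 165, 102 and 139 with rapamycin and 65, 77 and 64 with vehicle, without overlap. Its log2 difference was 0.96 ± 0.39 (adjusted p = 0.702), and 0.92 on the 2 rapamycin arrays of set 1 (adjusted p = 0.87). At 12 h, within set 2, Bhlhe40 read 310, 321 and 260 against 232, 236 and 225 without overlap (0.36 ± 0.50, adjusted p = 0.985), and Per1 -3, -7 and 10 against 23, 13 and 25 (-1.41 ± 0.56, adjusted p = 0.473). At 3 h Per2 stood at -1.26 ± 0.32 (adjusted p = 0.117) and Bhlhe40 at -1.72 ± 0.50 (adjusted p = 0.242), which were -0.98 and -0.75 on the 2 rapamycin arrays of set 2 (adjusted p = 0.62 and 0.911). Without rapamycin 3 h replicate 2, 3 members passed at 3 h, so the count there rests on that array.

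Whether the drug effect differed between the times was tested with an F-test over its 3 differences from 0 h. It passed for Bhlhe40 (adjusted p = 0.0108) and Nr1d2 (adjusted p = 0.0166), 2 of 8 beside 1.31% of all probe sets. For the other 6 members the adjusted p lay between 0.145 and 0.452. With array set in the model the adjusted p was 0.603 or more for all 8, where 0.0914% of all probe sets passed. With 30 as the floor it was 0.0554 for Bhlhe40 and 0.511 for Nr1d2. Without vehicle 0 h replicate 1 or rapamycin 0 h replicate 2, 1 member passed.

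Nonfasted mice were killed 24 h after their injection. Between their 2 drug groups (n = 2 each, in different array sets) no member passed in limma (1% of all probe sets did), and 1 had an unadjusted p under 0.05, Usp2 at 22 and 17 with vehicle and 0 and 3 with rapamycin (log2 -1.61 ± 0.71, adjusted p = 0.337). Nonfasted and fasted vehicle mice were compared at 24 and 2 h after injection, so that fast and time of day cannot be told apart there either. Against vehicle 0 h mice 1 of 8 members was higher in nonfasted vehicle mice, Bhlhe40 (beside 19.1% of all probe sets), and 0 were lower (beside 10.1%). It read 104 and 58 against -41, 6 and -28, at least 2.59-fold, a log2 change of 3.62 ± 0.56 (adjusted p = 3.95e-05; 1.92 and adjusted p = 0.0332 with the set as a term). It did not pass with the term and 30 as the floor (0.63, adjusted p = 0.252). The summed Kupffer cell markers ran from 778 to 1034 in the nonfasted vehicle mice and from 528 to 580 in the vehicle 0 h mice, with 5 markers higher and 1 lower, and their part in this result was not tested.

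Vehicle mice refed for 12 h and nonfasted vehicle mice were both with food, and their arrays are all in set 2. They were killed 14 and 24 h after injection. Dbp, Nr1d2 and Per2 were higher after 12 h of refeeding (3 of 8 beside 4.07% of all probe sets) and Arntl was lower (1 of 8 beside 1.93%), and the groups did not overlap for any of the 8 members, as for 43.5% of all probe sets. Per2 read 54, 85 and 62 against 5 and 2, at least 2.19-fold, a log2 change of 3.38 ± 0.35 (adjusted p = 1.20e-06). Nr1d2 changed by 3.08 ± 0.39 (adjusted p = 2.24e-05), at least 2.65-fold, and Dbp by 2.91 ± 0.44 (adjusted p = 2.04e-04), though Dbp did not pass with 30 as the floor (0.84, adjusted p = 0.135). Arntl read 50, 33 and 17 against 70 and 73 (-1.23 ± 0.36, adjusted p = 0.0414), and did not pass without vehicle 12 h replicate 2 or 3 or either nonfasted array (adjusted p between 0.0622 and 0.273). Bhlhe40 and the brighter Usp2 probe set stood at 1.57 and 1.91 (adjusted p = 0.106 and 0.0833), and both passed with 30 as the floor (adjusted p = 0.00123 and 0.0023). Clock also passed with that floor alone (-0.57, adjusted p = 0.0395). The other Usp2 probe set passed at 3.58 (adjusted p = 0.00876), but not once any 1 of these 5 arrays was left out (adjusted p between 0.094 and 0.435).

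**Figure D3:**
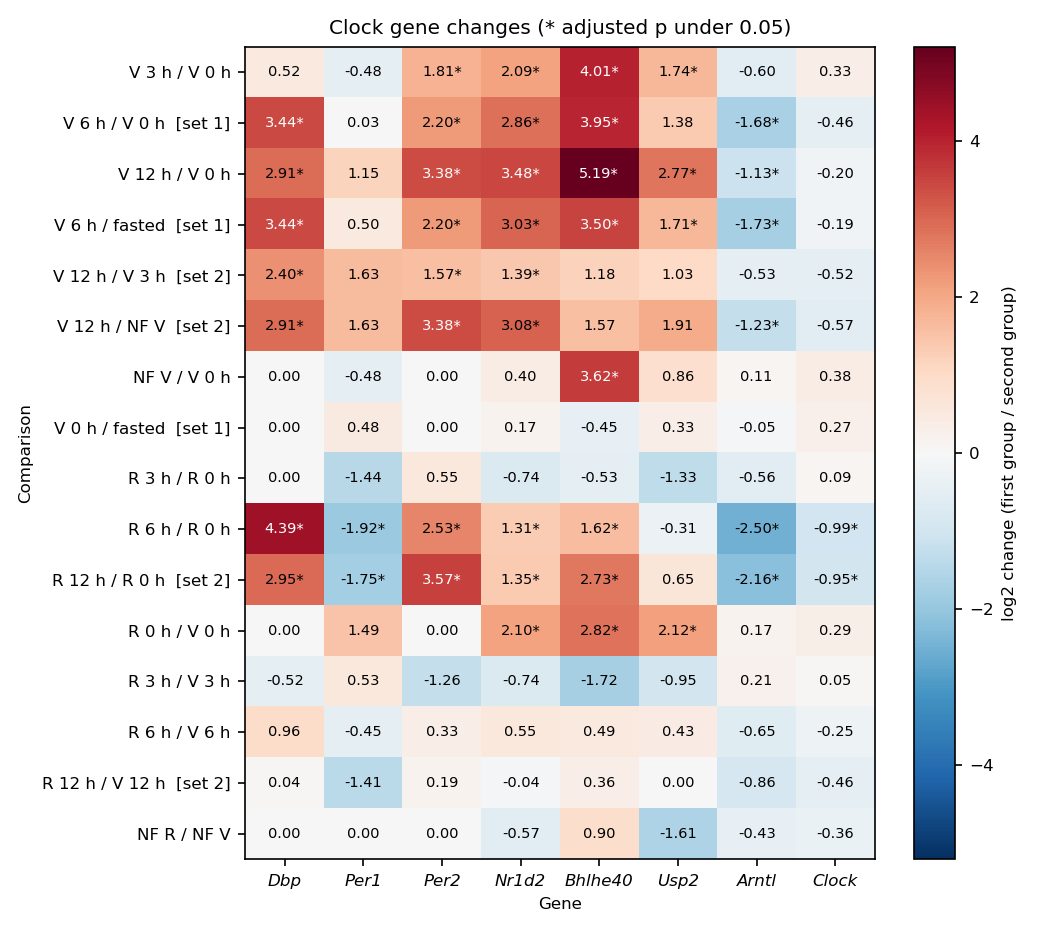
Log2 change of each clock gene (columns) in 16 comparisons (rows, first group over second; V vehicle, R rapamycin, NF nonfasted), with an asterisk where the adjusted p was under 0.05 and the array set in brackets where both groups lie in the same one. Dbp rose and Arntl fell in the comparisons of 6 or 12 h with 0 h, and no asterisk stands in the rows of rapamycin against vehicle at 3, 6 or 12 h.

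Over the 11 group means of floored log2 intensity, Dbp and Arntl ran opposite to each other (Pearson's r = -0.955). Arntl and Clock had r = 0.819, Nr1d2 and Per2 0.897, and Nr1d2 and Usp2 0.919. These values describe 11 means taken from the same arrays, which share depth and array set. Among 5000 other genes, those nearest to Dbp were Gcnt2, Coasy, Nln, Hmgn1 and Wee1 (r = 0.906 to 0.895). Those nearest to Bhlhe40 were Elovl6, a fatty acid elongase, Hsd3b3, Txnrd2, Mid1ip1, a regulator of fat synthesis, and Slc9a3r1 (0.974 to 0.952). Those nearest to Arntl were Gja5, the metallothioneins Mt1 and Mt2, Tax1bp3 and Kif22 (0.934 to 0.894). Of the genes nearest to Dbp, Gcnt2, Nln and Wee1 had mean intensities of 3.87, 3.53 and 2.69, below the floor of the log2 scale. Coasy and Hmgn1 had means of 130 and 598. Dbp itself was dim in the fasted and nonfasted groups. The part of the floor in the r values of Dbp was not tested.

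**Figure D4:**
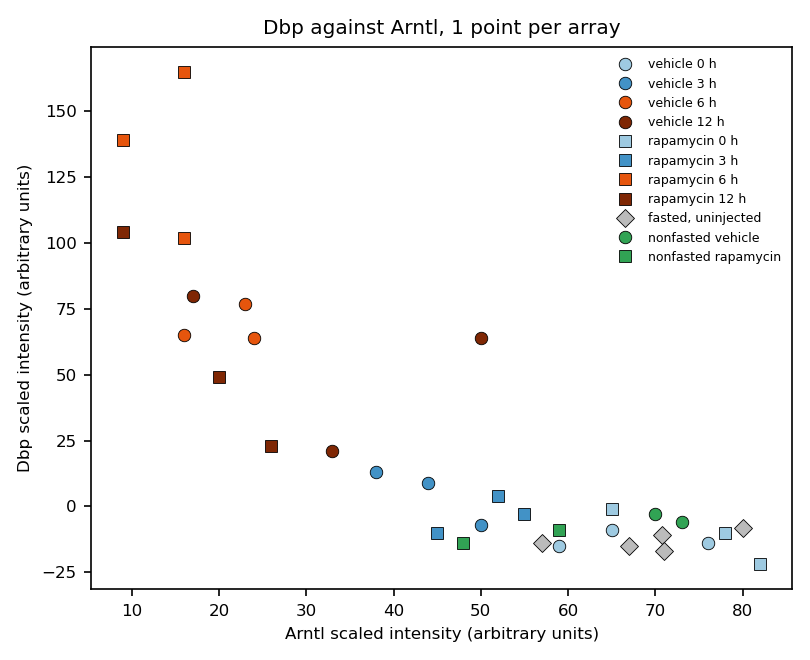
Intensity of Dbp (vertical axis) against that of Arntl (horizontal axis), both in arbitrary units, with 1 point for each of the 33 arrays, coloured by refeeding time or feeding state and shaped by drug. Arrays of 6 h of refeeding read 64 to 165 for Dbp and 9 to 24 for Arntl, those of 12 h read 21 to 104 for Dbp, and 1 vehicle 12 h array has a Dbp of 64 with an Arntl of 50.

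Other genes of the clock were taken from a list of 20, of which 10 were measured. Tef, a D-box factor related to DBP, had 71.7 ± 21.7 at 0 h and 199 ± 42 at 6 h in vehicle mice (SD, n = 3 each), a log2 change of 1.49 ± 0.49 (adjusted p = 0.0327). Nfil3, a repressor that binds the same D-boxes, fell from 45 ± 34.2 to -0.667 ± 4.62 (-2.56 ± 0.53, adjusted p = 9.27e-04). Tef and Nfil3 thus moved in opposite directions at 6 h. Cry1, which represses ARNTL and CLOCK, fell from 103 ± 10.1 to 53 ± 17.3 (-1.01 ± 0.24, adjusted p = 0.00297), on a probe set of a type that can match several sequences of a family. Nr1d1, which encodes REV-ERB-alpha, rose by 0.89 (adjusted p = 0.0466). In all 2 of 10 rose and 2 fell at 6 h, beside the 14.2% and 6.9% given above. The other 6, Per3, Cry2, Rora, Csnk1d, Btrc and Crem, did not pass, and Per3 stood at -0.66 (adjusted p = 0.054).

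At 3 h in vehicle mice Nr1d1 rose (0.90, adjusted p = 0.0429) and Cry1 fell (-0.96, adjusted p = 0.00519), 1 of 10 each beside 19.9% and 2.54% of all probe sets. Neither passed with the set as a term (0.58 and -1.13, adjusted p = 0.616 and 0.0873). At 12 h Cry1 (-0.70, adjusted p = 0.0227) and Nfil3 (-1.46, adjusted p = 0.0341) were lower, beside 9.3% of all probe sets, and none was higher, beside 26%. With the set as a term Nfil3 was at -2.49 (adjusted p = 0.0222) and Cry1 did not pass (-0.87, adjusted p = 0.0948). In rapamycin mice at 6 h Tef rose by 3.34 (adjusted p = 4.30e-05), from 18.3 ± 30.9 to 206 ± 43.1, 1 of 10 beside 10.7% of all probe sets. Beside 10.1% of all probe sets, 5 of 10 fell (Per3, Cry1, Nfil3, Csnk1d and Crem, by 1.10, 1.18, 3.15, 0.67 and 0.83 on the log2 scale). Of these Per3, Csnk1d and Crem did not pass with the set as a term (adjusted p = 0.0793, 0.0838 and 0.122). At 12 h Tef was higher (3.31, adjusted p = 2.92e-05) and Nfil3 and Crem were lower, 1 and 2 of 10 beside 14.6% and 10.4% of all probe sets. At 0 h Tef was the 1 of 10 that passed between the drugs, lower with rapamycin (-1.79, adjusted p = 0.0325), beside 0.579% of all probe sets lower and 4.78% higher. It did not pass with the set as a term (-1.98, adjusted p = 0.578). At 3, 6 and 12 h and in nonfasted mice none of the 10 passed between the drugs, where 0.305%, 0.0152%, 0.32% and 1% of all probe sets did. Nfil3 was lower in vehicle 12 h than in nonfasted vehicle mice, 14 ± 4.36 (n = 3) against 86 ± 5.66 (n = 2), a log2 change of -2.66 (adjusted p = 0.00712).

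Of 12 listed output genes of the liver clock 7 were measured. Nampt, the rate-limiting enzyme of NAD salvage, rose in vehicle mice from 33 ± 4.58 at 0 h to 57.3 ± 5.77 at 3 h, 86.3 ± 12.7 at 6 h and 93 ± 16.1 at 12 h, with log2 changes of 0.80, 1.39 and 1.49. The cell cycle kinase gene Wee1 lay under 30 in every group mean and passed at 12 h (1.61, adjusted p = 0.00746). Fkbp5, a glucocorticoid-induced chaperone partner, fell at all 3 times, from 338 ± 52 to 74 ± 70.3, 43 ± 20.5 and 106 ± 9.54. At 6 h 3 of 7 rose (Alas1, Nampt and Tubb2a) and 1 fell (Fkbp5), beside 14.2% and 6.9% of all probe sets. At 3 h Nampt, Cyp7a1 and Tubb2a rose and Fkbp5 fell, beside 19.9% and 2.54% of all probe sets. At 12 h Wee1, Nampt and Tubb2a rose and Fkbp5 and Tfrc fell, beside 26% and 9.3%. With the set as a term, Fkbp5 alone passed at 3 h (adjusted p = 0.0483), and Nampt and Tubb2a at 12 h (adjusted p = 0.0188 and 0.0268), beside 2.68% and 15.6% of all probe sets. No output gene passed between rapamycin and vehicle at 0, 3, 6 or 12 h or in nonfasted mice, beside the shares of all probe sets given above.

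**Figure D5:**
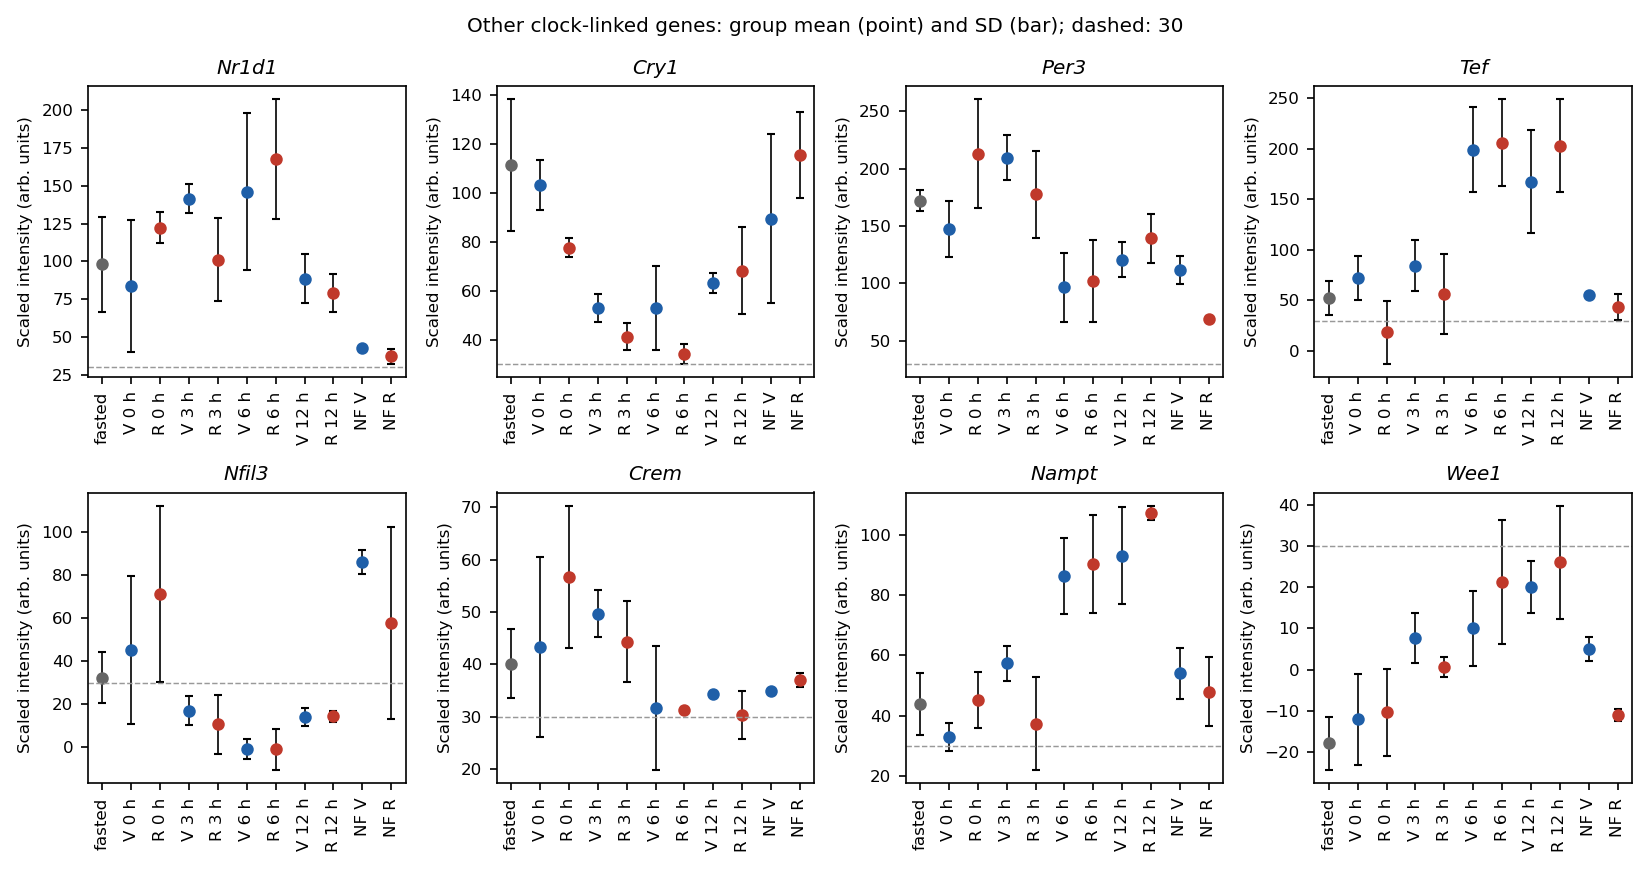
Group mean intensity (points, arbitrary units) and SD (bars) of 8 further clock-linked genes by group, with V for vehicle, R for rapamycin and NF for nonfasted mice and a dashed line at 30. Tef and Nampt were highest at 6 and 12 h of refeeding, where Nfil3 was low, and Nfil3 was highest in nonfasted vehicle mice (86).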

How the data were processed

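The deposited values are Affymetrix average-difference intensities, background-subtracted and scaled per array by the authors, per the file headers, and not on a log scale. Detection calls are the authors' own. They stand under experiment numbers that were not mapped to samples and served only as a count over the 33 arrays, and 66 further columns were not used. Software versions behind these values are not given in the sources used here.

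Probe sets called present on at least 3 arrays were kept (6568 of 12488). Intensities were raised to 6.314 (0.1 of the mean trimmed mean) and converted to log2. All 11 group means were fitted in limma 3.58.1 (R 4.3.3), with 22 residual degrees of freedom and Benjamini-Hochberg adjustment over all probe sets tested, at a threshold of 0.05. Group sizes of 2 to 5 arrays limit the precision, and p-values measure the spread between these arrays, 1 for each mouse. A gene was counted by its probe set of highest mean. Symbols came from the platform annotation, in which 10855 probe sets have 1 symbol, 396 several and 1237 none. Motifs were searched in RefSeq promoter windows (Python 3.11.15).

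All 8 members were tested in every comparison. The text names members, and further clock and output genes where they passed in the comparisons described for them. Calls of these further genes in other comparisons are not listed, among them those of output genes over refeeding in rapamycin mice. A further gene that is not named for a comparison may therefore have passed in it. Members and lists were chosen with earlier results of these data known. The 2 array sets were defined from the share of values at or below 0, and the within-set fits and 3 comparisons (vehicle 12 h against 3 h, and vehicle 6 h and rapamycin 0 h against uninjected mice) were added after seeing the data, as was the set term for the further genes. Other alternatives were quantile and trimmed-mean scaling, a floor of 30, the array set as a term, no detection filter, the mean over probe sets, a replicate block, a fit of 2 groups alone and leaving out each array. Same-numbered arrays of different groups had deviations correlated from -0.427 to 0.213 over 146 pairs, so the numbers pair no samples. The fit was tested on simulated data.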

Additional observations from a re-analysis of the deposited data

Results flagged for a closer look

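The effect of rapamycin differed between refeeding times for Bhlhe40 (F-test in limma, adjusted p = 0.0108) and Nr1d2 (adjusted p = 0.0166). The drug effect at 3 h minus that at 0 h was -4.54 ± 0.71 on the log2 scale for Bhlhe40 (adjusted p = 0.00182), -2.83 ± 0.49 for Nr1d2 (adjusted p = 0.00306) and -3.07 ± 0.82 for Usp2 (adjusted p = 0.0331). In each, the rapamycin mice were above the vehicle mice at 0 h in all 3 arrays. With array set in the model these differences were -2.28, -1.52 and -0.97, and none passed (adjusted p = 0.64, 0.716 and 0.949). The vehicle and rapamycin 0 h arrays lie in different sets, and the part of the set in these differences was not tested beyond that term.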

How the results depend on the processing

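Calls among the 8 genes were counted again under each alternative. With 30 as the floor, counts went from 4 to 2 for vehicle 3 h against 0 h, from 1 to 3 for vehicle 12 h against 6 h, from 0 to 2 for rapamycin 3 h against 0 h, from 3 to 1 for rapamycin against vehicle at 0 h (a different gene, Per1), from 3 to 5 for vehicle 12 h against 3 h (with Dbp lost), from 5 to 2 for rapamycin 0 h against uninjected mice and from 2 to 0 for the drug by time test. With array set in the model, the count was 1 for vehicle 3 h against 0 h and 0 for vehicle 6 h against 3 h, vehicle 12 h against 6 h, rapamycin against vehicle at 0 h, rapamycin 0 h against uninjected mice and drug by time. In this order 2.68%, 0.0152%, 0.0914%, 0.0457%, 0.0305% and 0.0914% of all probe sets passed with the set as a term.

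With the term and 30 as the floor together, the count was 0 for vehicle 3 h against 0 h, vehicle 12 h against 6 h, rapamycin against vehicle at 0 h, rapamycin 0 h against uninjected mice, nonfasted vehicle against vehicle 0 h and drug by time. It was 1 for vehicle 6 h against 3 h, rapamycin 3 h against 0 h and the nonfasted drug groups, and 5 for vehicle 12 h against 3 h. Directions reversed under this pair of choices for Nr1d2 (-0.24), Per2 (-0.10) and Usp2 (-0.12) from vehicle 0 to 3 h, and for Bhlhe40 (-0.17) and Nr1d2 (-0.21) in rapamycin 0 h mice against either fasted group. The cause was not tested.

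The 1 call from vehicle 6 to 12 h was 0 under quantile normalization, trimmed-mean scaling, no detection filter, the replicate block and the fit of 2 groups alone, and 2 with the mean over probe sets. Quantile normalization left 1 gene in the drug by time test. The fit of 2 groups alone gave 1 call for vehicle 12 h against nonfasted vehicle and 5 for vehicle 12 h against 3 h. The replicate block gave 3 calls for rapamycin 0 h against uninjected mice. It moved no other count of calls by over 1.5 times, and the numbers do not pair the samples. Within 1 array set no count moved by that much in the 4 comparisons run.

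Leaving out 1 array at a time gave 3 to 4 calls for vehicle 3 h against 0 h, 5 to 6 at 6 h and 5 to 7 at 12 h, 5 to 6 for rapamycin 6 h against 0 h, 6 to 7 at 12 h and 0 to 1 at 3 h. It gave 1 to 3 for vehicle 6 h against 3 h (1 without vehicle 3 h replicate 3) and 0 to 1 for vehicle 12 h against 6 h (0 without replicate 2 or 3 of either group). For rapamycin 3 h against 0 h, 1 gene passed without rapamycin 0 h replicate 3 or rapamycin 3 h replicate 2. Between the drugs the range was 2 to 4 at 0 h, 0 to 3 at 3 h (3 without rapamycin 3 h replicate 2) and 0 at 6 h, at 12 h and in nonfasted mice. It was 0 for vehicle 0 h against uninjected mice, 1 for nonfasted vehicle against vehicle 0 h, 3 to 4 for vehicle 12 h against nonfasted vehicle, 2 to 3 for vehicle 12 h against 3 h, 5 to 6 for vehicle 6 h against uninjected mice and 3 to 4 for rapamycin 0 h against them (3 without rapamycin 0 h replicate 1 or 2). The drug by time test gave 1 to 3 (1 without vehicle 0 h replicate 1 or rapamycin 0 h replicate 2) and the vehicle time course 6 to 7. Signal over background limits these genes unequally, with 31 of 33 arrays at or below 30 for Per1, 23 for Dbp, 22 for Per2, 17 for Nr1d2 and 15 for the brighter Usp2 probe set.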
